A study of Mus musculus with 4 samples.

Results

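The 10 genes described here encode TGF-beta and activin ligands (Tgfb1, Tgfb2, Tgfb3, Inhba), TGF-beta receptors (Tgfbr1, Tgfbr2, Tgfbr3) and intracellular feedback regulators (Smad7, Skil, Pmepa1). They were taken as a fixed list of symbols from 35905 genes, and all 10 passed the filter on low counts that left 13718 genes for testing. All are annotated as protein-coding, on chromosomes 7 (Tgfb1), 1 (Tgfb2), 12 (Tgfb3), 13 (Inhba), 4 (Tgfbr1), 9 (Tgfbr2), 5 (Tgfbr3), 18 (Smad7), 3 (Skil) and 2 (Pmepa1). RNA came from Lewis lung carcinoma (LLC), a transplantable line of mouse lung cancer, grown under the skin of C57BL/6 hosts for 4 weeks. Cancer cells labelled with TdTomato were separated from leukocytes by sorting for TdTomato and against CD45. Hosts of 2 libraries were PAD4-DN (Mrp8Cre+, Padi4fl/fl) and hosts of 2 were WT (Mrp8Cre-, Padi4fl/fl). Both groups therefore carried floxed Padi4, and Mrp8Cre, a driver active mainly in neutrophils, deletes it in host cells and not in the sequenced cancer cells. Neither host age and sex nor whether the libraries of a group came from separate animals is stated in the labels. The p-values then measure only the spread between these libraries, which may be technical.

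Total estimated counts were 20036322 and 24142484 in the PAD4-DN libraries and 23414984 and 25327974 in the WT libraries, and 3 counts, taken as the floor of detection, were 0.118 to 0.150 CPM (counts scaled to the library's total). Of the epithelial markers, the keratins Krt8 and Krt18 were at 131 to 227 TPM (transcript abundance scaled for length and library) in every library. The keratins Krt7 and Krt19 were low, at 0.192 to 0.506 TPM and 0.394 to 1.83 TPM, and Epcam and Cdh1 were at or under 0.351 TPM. The leukocyte gene Ptprc, which encodes CD45, was at 1.88 and 0.324 TPM in PAD4-DN libraries and 0.713 and 0.551 TPM in WT libraries. In bulk samples, fewer cells of a type and less RNA per cell cannot be told apart.

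TGF-beta is secreted as a latent dimer held in the matrix by latent TGF-beta binding proteins and is released by integrins, proteases and thrombospondin. The released ligand binds Tgfbr2, which recruits and activates Tgfbr1, and Tgfbr3 (betaglycan) is a co-receptor that presents ligand, above all TGF-beta 2. Activated Tgfbr1 phosphorylates Smad2 and Smad3, which enter the nucleus with Smad4. The pathway induces its own inhibitors: Smad7 blocks and degrades the receptor, Skil (SnoN) represses SMAD targets, and Pmepa1 sequesters SMADs. Activin A, a dimer of the Inhba product, signals through other receptors to the same SMADs. In tumours the pathway is known for restraining growth of epithelial cells at first and for later promoting invasion, matrix production and immune suppression.

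Alternative coding segments part the main transcripts of Skil, Tgfbr2 and Tgfbr1, and they are shown because the transcript levels below are split by them. They were read from GENCODE release M21 transcripts that have the same identifier and length in the deposited tables. Each line runs 5′ to 3′ along the transcript, with the alternative segment in capitals and 12 bases of the neighbouring coding sequence on each side in lower case.
Skil: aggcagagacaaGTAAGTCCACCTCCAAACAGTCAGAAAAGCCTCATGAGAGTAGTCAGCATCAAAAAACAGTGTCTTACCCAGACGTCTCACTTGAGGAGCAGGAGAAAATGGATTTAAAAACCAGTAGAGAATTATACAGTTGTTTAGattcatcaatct
Tgfbr2: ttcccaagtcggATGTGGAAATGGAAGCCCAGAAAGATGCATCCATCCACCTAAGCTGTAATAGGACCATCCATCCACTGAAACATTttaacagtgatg
Tgfbr1: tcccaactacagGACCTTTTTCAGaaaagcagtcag
On build GRCm38, which is older than the GRCm39 build named for the deposited tables, the Skil segment is the 3′ part of exon 4 (chr3:31113503-31113640, plus strand, 138 bases). The Tgfbr2 segment is the whole of exon 2 (chr9:116158271-116158345, minus strand, 75 bases), and the Tgfbr1 segment is the 5′ end of exon 3 (chr4:47393247-47393258, plus strand, 12 bases). The 3 segments lie in coding sequence and keep the reading frame, adding 46, 25 and 4 codons in this order. In background terms, the Skil form without the segment is known as SnoN2, and the Tgfbr2 form with it as type II receptor B, which can bind TGF-beta 2 without betaglycan.

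Within each library, levels are compared between genes in TPM, which is scaled for transcript length. Tgfbr3 was the most abundant of the 10 genes, and the 2 least abundant were Tgfb2 and Pmepa1. Tgfbr3 was at 213 and 151 TPM in PAD4-DN libraries and 154 and 140 TPM in WT libraries. Its mean over all libraries, 165 TPM, lay above 94.6% of protein-coding genes with a mean of at least 1 TPM. Next came Tgfb1 (mean over all libraries 39.4 TPM), Tgfbr2 (38.0 TPM), Tgfb3 (31.5 TPM) and Skil (25 TPM). The library ranges of neighbours among these overlapped, though within every library Tgfb3 lay above Skil. Tgfbr1 (14.3 TPM) lay below Skil and above Smad7 (8.62 TPM) in every library. Smad7 lay above Inhba (6.50 TPM) within every library, though their ranges over the libraries overlapped. Pmepa1 (0.843 TPM) and Tgfb2 (0.447 TPM) lay below all others in every library, and their ranges overlapped each other.

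**Figure D1:**
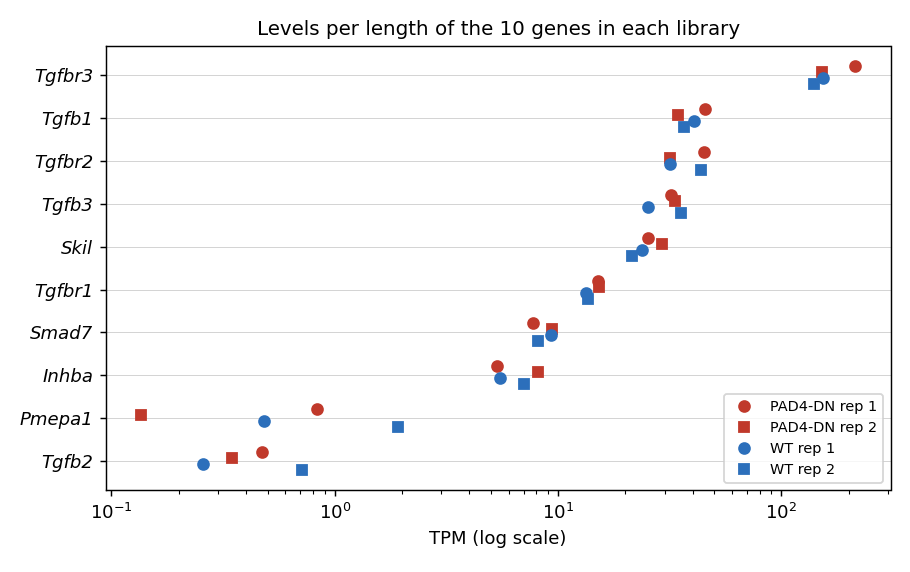
TPM (log scale) of the 10 genes in 2 PAD4-DN libraries (red) and 2 WT libraries (blue), ordered by mean. Tgfbr3 lies at 140 to 213 TPM, 4 genes lie between 21.5 and 45.6 TPM, and Pmepa1 and Tgfb2 lie under 2 TPM.

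Genotypes are compared in CPM scaled by TMM. At an adjusted p of 0.05 by edgeR's quasi-likelihood test, 0 of the 10 genes passed, as did 0% of 13718 genes. At an unadjusted p under 0.05, edgeR gave 0 of the 10 genes, against 2.65% of all genes, 1.23% in the direction of PAD4-DN above WT and 1.42% in the opposite one. DESeq2 called 0 of the 10 against 0.0802% of all genes, and limma-voom called 0 of the 10. The median log2 fold change of the 10 genes was 0.01, and that of all tested genes was also 0.01, with 5 of the 10 above and 5 below 0. Both PAD4-DN libraries lay above both WT libraries for 2 genes, Tgfbr1 and Skil, against 15.4% of all genes tested. For no member did both lie below, against 17.4% of all genes. In either direction this is 2 of 10, against 32.8% of all genes. With 2 libraries a group, the smallest two-sided p that exact permutation allows is 0.33.

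**Figure D2:**
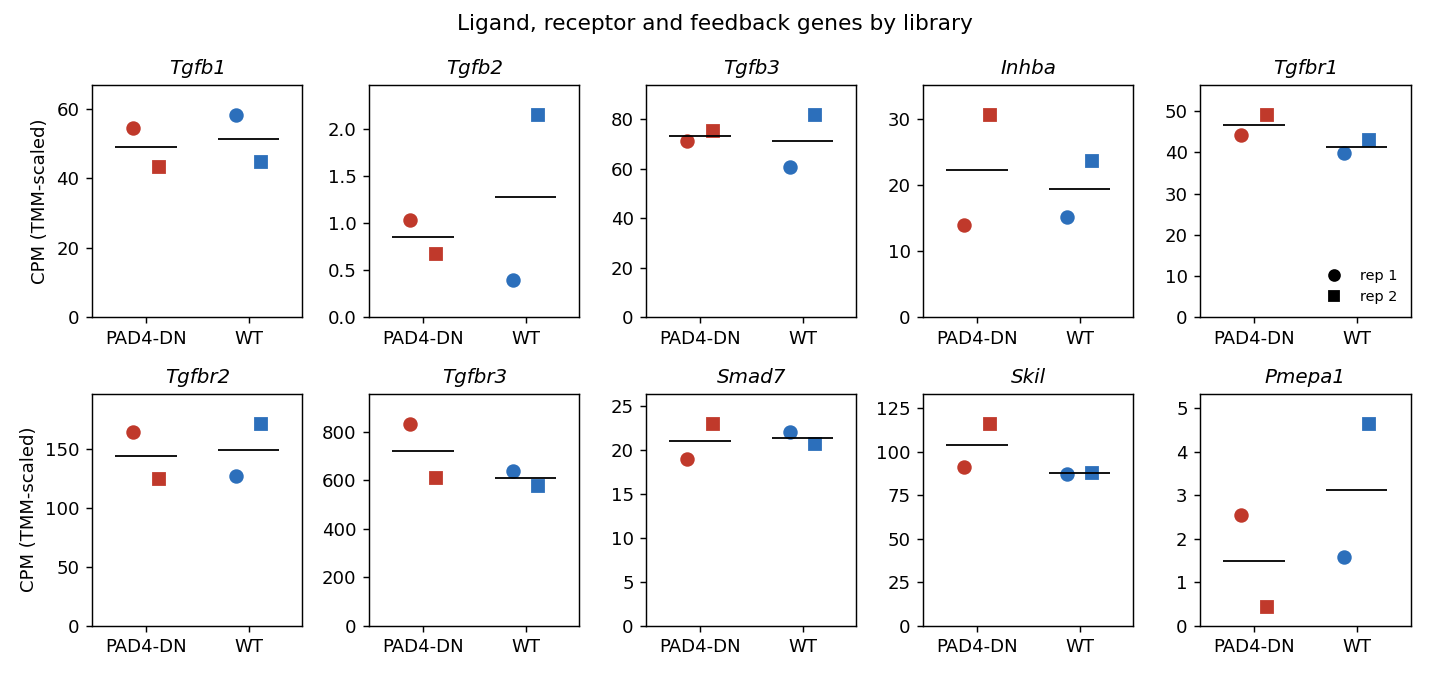
CPM (TMM-scaled, axis from 0) of each gene in PAD4-DN (red) and WT (blue) libraries, with circles for replicate 1, squares for replicate 2 and a line at the mean of each group. Groups are apart for Tgfbr1 and Skil and overlap for the other 8 genes.

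Among the ligands, Tgfb1 and Tgfb3 were expressed at similar levels and Tgfb2 was low. Tgfb1, the main TGF-beta ligand of immune cells, was at 54.6 and 43.4 CPM in PAD4-DN libraries and 58.3 and 44.8 CPM in WT libraries. In both groups replicate 1 was the higher library, and the groups overlapped. Its log2 fold change was −0.07 (SE 0.19, 95% interval −0.55 to 0.41; edgeR adjusted p = 0.992). Tgfb3 was at 71.2 and 75.4 CPM in PAD4-DN libraries, inside the span of the WT libraries at 60.8 and 81.7 CPM. The fitted log2 fold change was 0.04 (SE 0.17, interval −0.38 to 0.47). Tgfb2 had 21 and 16 estimated counts in PAD4-DN libraries and 9 and 54 in WT libraries, so both PAD4-DN values lay between the WT ones. At these counts, and with this spread between the WT libraries, its log2 fold change of −0.59 carried an interval of −2.68 to 1.51.

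The 3 TGF-beta ligands together were at 78.0 and 68.4 TPM in PAD4-DN libraries and 66.1 and 72.8 TPM in WT libraries. Tgfb1 made up 58.5% and 50.6% of this sum in PAD4-DN libraries and 61.4% and 50.4% in WT libraries. The difference in the mean share was −1.42 percentage points, under the spread between libraries (SD 5.60 in PAD4-DN and 7.79 in WT, n = 2 each; two-sided exact permutation p = 1). Tgfb3 took 40.9% and 48.9% in PAD4-DN libraries and 38.2% and 48.6% in WT libraries, and Tgfb2 stayed under 1% in every library. The Tgfb1 values include a noncoding transcript of 241 bases that had 2 to 5 estimated counts per library yet 1.67 to 5.05 TPM. The main coding transcript of Tgfb1, of 2175 bases, was at 37.6 and 30.1 TPM in PAD4-DN libraries and 38.0 and 29.8 TPM in WT libraries. Tgfb3, which has 1 transcript in the files, was at 31.9 and 33.5 TPM in PAD4-DN libraries and 25.2 and 35.4 TPM in WT libraries. By these transcripts the order of Tgfb1 and Tgfb3 differed between libraries, with Tgfb3 the higher in replicate 2 of each group.

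Inhba, the subunit of activin A, varied more between libraries of a group than between genotypes. It was at 14.0 and 30.6 CPM in PAD4-DN libraries and 15.1 and 23.7 CPM in WT libraries, so that replicate 2 was the higher in both groups and the PAD4-DN values enclosed the WT ones. For Inhba the log2 fold change was 0.20 (SE 0.41, interval −0.82 to 1.23). Most of this spread lay in the 6390-base transcript Inhba-201, which had 237 and 696 estimated counts in PAD4-DN libraries and 278 and 543 in WT libraries. The 1529-base Inhba-202, with a shorter 3′ end, had 50.2 and 33.9 counts in PAD4-DN libraries and 65.1 and 54.1 counts in WT libraries. Inhbb, the subunit of activin B, was lower in both PAD4-DN libraries than in both WT libraries, at 5.12 and 3.35 CPM in PAD4-DN libraries and 7.34 and 11.3 CPM in WT libraries. The Inhbb log2 fold change was −1.14 (SE 0.35, unadjusted p = 0.0200, edgeR adjusted p = 0.988), which did not pass. Inhbb was named for the smallest p of its list, and 17.4% of all genes likewise lay lower in both PAD4-DN libraries. In TPM, Inhba exceeded Inhbb 2.96-fold and 7.0-fold in PAD4-DN libraries and 2.29-fold and 1.84-fold in WT libraries. These ratios did not overlap (two-sided exact permutation p = 0.33, the smallest possible). Since Inhba by itself overlapped, the ratio repeats the separation of Inhbb.

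**Figure D3:**
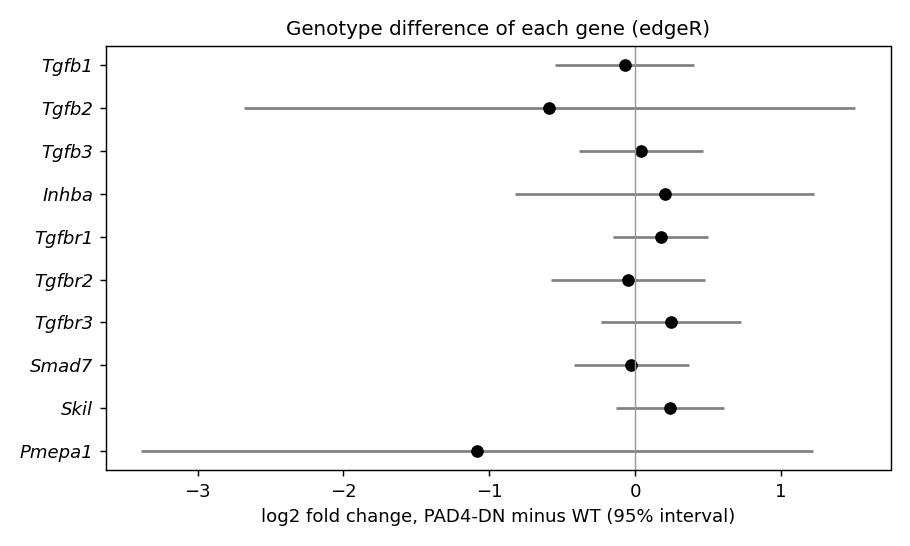
Log2 fold change of the 10 genes (PAD4-DN minus WT, edgeR) with 95% intervals. The 10 intervals all include 0, and those of Tgfb2 and Pmepa1 are the widest, at −2.68 to 1.51 and −3.39 to 1.22.

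Among the receptors, betaglycan transcripts far exceeded those of the signalling receptors in all libraries. The ratio of Tgfbr3 to Tgfbr2 in TPM was 4.75 and 4.79 in PAD4-DN libraries and 4.89 and 3.21 in WT libraries. The ratio of Tgfbr2 to Tgfbr1 was 2.97 and 2.08 in PAD4-DN libraries and 2.37 and 3.21 in WT libraries, also with overlap. Tgfbr3 was at 833 and 611 CPM in PAD4-DN libraries and 640 and 578 CPM in WT libraries, with PAD4-DN replicate 1 above the other libraries. Most of it came from a coding transcript of 6087 bases, and a noncoding transcript of 2849 bases held 6.89% and 3.02% of Tgfbr3 TPM in PAD4-DN libraries and 12.3% and 4.58% in WT libraries. On average it was at 722 ± 157 CPM in PAD4-DN libraries and 609 ± 44.3 CPM in WT libraries (SD, n = 2 each). Its log2 fold change was 0.25 (SE 0.19, interval −0.23 to 0.72), and it was 0.0050 without PAD4-DN replicate 1 and 0.45 without PAD4-DN replicate 2. Tgfbr2, the ligand-binding kinase, was at 165 and 125 CPM in PAD4-DN libraries and 128 and 172 CPM in WT libraries. Each group held 1 high and 1 low library, and the log2 fold change was −0.05 (SE 0.21, interval −0.57 to 0.48).

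Tgfbr1, the signalling kinase that phosphorylates Smad2 and Smad3, was at 44.3 and 49.0 CPM in PAD4-DN libraries and 39.7 and 43.0 CPM in WT libraries. The groups did not overlap, with a narrow gap between the lower PAD4-DN and the higher WT library. The log2 fold change was 0.17 (SE 0.13, interval −0.15 to 0.50; edgeR adjusted p = 0.988), and it stayed between 0.10 and 0.25 with any 1 library left out. Transcripts with the 12-base segment printed above took 75.0% and 78.7% of Tgfbr1 transcripts classed by it, in TPM, in PAD4-DN libraries, and 74.5% and 74.3% in WT libraries. Those with the 75-base Tgfbr2 segment took 41.9% and 49.0% in PAD4-DN libraries and 44.6% and 45.7% in WT libraries. The Tgfbr2 transcripts differ in the length of their 3′ ends as well. The Tgfbr1 transcripts are 5756 and 1713 bases long with the segment and 2861 and 1829 bases without it. Neither split is thus a measure of the segment alone.

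For Skil the groups did not overlap in the total or in the transcript mix, and the gene's total did not pass its test. The split by segment was chosen after its values were seen. The gene was at 91.3 and 116 CPM in PAD4-DN libraries and 87.4 and 88.0 CPM in WT libraries. PAD4-DN replicate 2 stood above the others, and PAD4-DN replicate 1 was close to the WT pair. Skil averaged 104 ± 17.5 CPM in PAD4-DN libraries and 87.7 ± 0.403 CPM in WT libraries (SD, n = 2 each). The log2 fold change was 0.24 (SE 0.15, interval −0.13 to 0.61; edgeR adjusted p = 0.988), and it was 0.06 without PAD4-DN replicate 2 and 0.40 without PAD4-DN replicate 1. Skil transcripts that hold the 138-base segment took 48.4% and 46.0% of the TPM classed by it in PAD4-DN libraries and 40.2% and 35.3% in WT libraries. Both PAD4-DN libraries lay above both WT libraries here, as they did for 14.9% of 19185 single-transcript shares with a mean of 10 to 90% in genes of at least 1 TPM. In either direction 31.7% of those shares did not overlap.

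The Skil transcripts that hold the segment differed in their pattern over the libraries. Skil-201, of 6717 bases, had 477 and 1025 estimated counts in PAD4-DN libraries and 205 and 368 in WT libraries, with no overlap. Skil-204, of 6578 bases, lacks the segment and otherwise differs from Skil-201 by a few bases at the ends. It had 1109 and 1560 counts in PAD4-DN libraries and 1437 and 1602 in WT libraries, with overlap. Of the summed TPM of these transcripts, Skil-201 held 29.6% and 39.1% in PAD4-DN libraries and 12.2% and 18.4% in WT libraries. The shorter Skil-203, of 2904 bases, also holds the segment, so the Skil split by segment is not a measure of the segment alone. Skil-203 had 242 and 137 counts in PAD4-DN libraries and 323 and 217 in WT libraries, with overlap. The ratio of Skil to its relative Ski, in TPM, was 0.651 and 0.760 in PAD4-DN libraries and 0.695 and 0.595 in WT libraries, also with overlap. Kallisto divides reads between transcripts by an estimate whose error is not in the files, so these transcript values carry no error of their own.

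**Figure D4:**
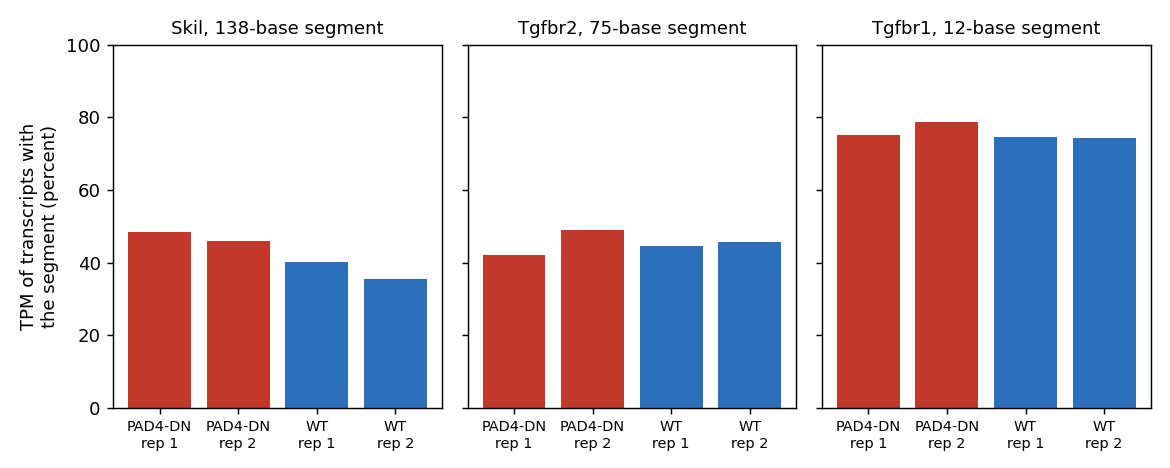
Percent of TPM in transcripts that hold the alternative coding segment of Skil (138 bases), Tgfbr2 (75 bases) and Tgfbr1 (12 bases), of the transcripts classed by it, 1 bar per library, with PAD4-DN red and WT blue. For Skil the PAD4-DN bars, at 48.4% and 46.0%, are above the WT bars, at 40.2% and 35.3%.

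Of the other feedback genes, Smad7 varied little between libraries and Pmepa1 had few counts. Smad7, the inhibitory SMAD that is itself a direct TGF-beta target, was at 19.0 and 23.0 CPM in PAD4-DN libraries, enclosing the WT values of 22.0 and 20.7 CPM. Smad7 had a log2 fold change of −0.03 (SE 0.16, interval −0.42 to 0.37), and its whole range over the 4 libraries was 1.21-fold. A coding transcript of Smad7 of 769 bases had 0.337 and 1.95 estimated counts in PAD4-DN libraries and 20.8 and 12.4 in WT libraries, without overlap. The main transcript, of 4278 bases, had 387 to 540 counts. The short transcript held 0.564% and 2.29% of Smad7 TPM in PAD4-DN libraries and 23.7% and 15.7% in WT libraries. It was named after its values were seen, and 31.7% of the single-transcript shares described above did not overlap in either direction. Its few counts rest on kallisto's division of reads. Pmepa1 had 52 and 10 estimated counts in PAD4-DN libraries and 36 and 117 in WT libraries, an 11.1-fold range in CPM. The log2 fold change of Pmepa1 was −1.08 (SE 0.92, interval −3.39 to 1.22), on few counts that also differed widely within each group. It was −0.11 without WT replicate 2, −0.29 without PAD4-DN replicate 2, −2.88 without PAD4-DN replicate 1, and leaving out WT replicate 1 gave −1.65. The members nearest to each other over the 4 libraries were Tgfbr1 and Skil, whose centred log2 CPM differed by a root mean square of 0.08, a description over 4 libraries only.

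**Figure D5:**
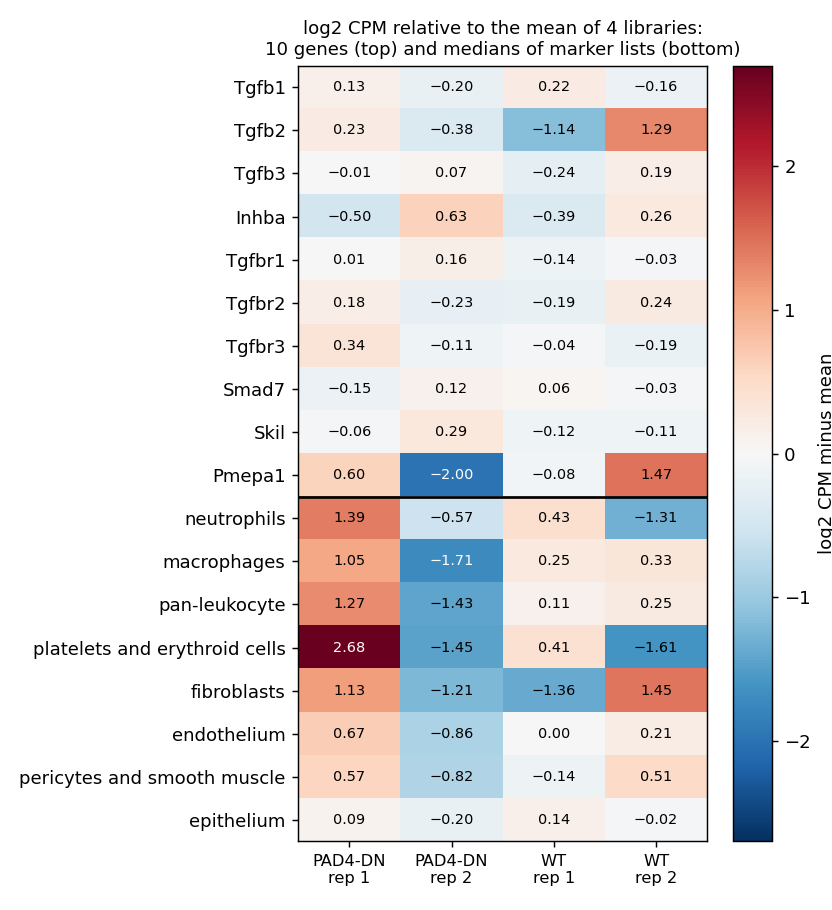
Log2 CPM minus the mean of the 4 libraries, for each of the 10 genes (upper rows) and as the median over the tested genes of each marker list (lower rows, with 0.1 CPM added). The median of the fibroblast markers is high in PAD4-DN replicate 1 and WT replicate 2 and low in the other pair. Tgfb2, Tgfbr2 and Pmepa1 are also higher in PAD4-DN replicate 1 and WT replicate 2 than in the other pair. So are the medians of the endothelial, pericyte, macrophage and pan-leukocyte markers.

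Medians of marker lists for other cells moved with some of these values. Fibroblast markers, all 10 of which were tested, had a median of 1.13 and −1.21 in PAD4-DN libraries and −1.36 and 1.45 in WT libraries, in log2 CPM relative to the mean of the libraries. Their summed level was 618 and 687 TPM in PAD4-DN libraries and 456 and 540 TPM in WT libraries, mostly from Lum, Dpt and Pdgfra, which were at least 66.6 TPM in every library. No fibroblast marker was at 0 in any library. The summed fibroblast level did not follow the median and was highest in PAD4-DN replicate 2, where the median was low. Nor did Fap, at 29.2 and 29.1 CPM in PAD4-DN libraries and 26.5 and 12.1 CPM in WT libraries. Tgfb2, Tgfbr2 and Pmepa1 were each higher in PAD4-DN replicate 1 and WT replicate 2 than in the other libraries, the same libraries in which those medians were high. PAD4-DN replicate 1, which had the highest Tgfbr3, also had the highest median for macrophage markers (1.05, against −1.71 in PAD4-DN replicate 2 and 0.25 and 0.33 in WT). That library also had the highest medians for pan-leukocyte, neutrophil, platelet and erythroid, endothelial and pericyte markers. Endothelial markers (7 of 8 tested) had a median of 0.67 and −0.86 in PAD4-DN libraries and −0.0018 and 0.21 in WT libraries, and summed to 50.1 and 33.1 TPM in PAD4-DN libraries and 30.5 and 27.5 TPM in WT libraries. Pericyte and smooth muscle markers (3 of 7 tested) had a median of 0.57 and −0.82 in PAD4-DN libraries and −0.14 and 0.51 in WT libraries, and summed to 3.73 and 2.26 TPM in PAD4-DN libraries and 2.50 and 3.76 TPM in WT libraries. The medians of both lists were therefore higher in PAD4-DN replicate 1 and WT replicate 2 than in the other libraries, as were Tgfb2, Tgfbr2 and Pmepa1. The summed endothelial level did not follow this and was lowest in WT replicate 2. Nor did Pecam1, at 57.7 and 33.2 CPM in PAD4-DN libraries and 33.4 and 26.8 CPM in WT libraries. Pan-leukocyte markers (4 of 7 tested) had a median of 1.27 and −1.43 in PAD4-DN libraries and 0.11 and 0.25 in WT libraries. The macrophage and pan-leukocyte medians were thus also higher in PAD4-DN replicate 1 and WT replicate 2 than in the other libraries. Between the WT libraries the gap was small in both lists. Summed macrophage markers were at 122 and 23.8 TPM in PAD4-DN libraries and 59.1 and 63.7 TPM in WT libraries, with none at 0. Platelet and erythroid markers summed to 507 and 16.4 TPM in PAD4-DN libraries and 138 and 19.8 TPM in WT libraries, and the platelet gene Gp9 was listed at 0 in 3 of 4 libraries. Neutrophil markers summed to 66.8 and 13.9 TPM in PAD4-DN libraries and 47.4 and 7.67 TPM in WT libraries, while Elane was at 0 throughout and Ly6g at 0 in 3 of 4. Tgfb1 and these neutrophil and platelet lists all had their higher library in replicate 1 of each group. The part of these cells in the member values was not tested.

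The rest of the pathway was followed through 7 lists with 107 genes outside the members. By edgeR 0 of the 87 tested genes passed, and 3 had an unadjusted p under 0.05, namely Klf10 and Itgb8, above WT, and Inhbb, below WT, where 2.65% of all genes had such a p. Log2 fold changes were positive for 61 and negative for 26, with a median of 0.12, where 7062 of the 13718 genes were positive. Both PAD4-DN libraries lay above both WT libraries for 16 of the 87, against 15.4% of all genes, and below for 2, against 17.4% of all genes. Without PAD4-DN replicate 1, 44 were positive and 43 negative, with a median of 0.02. The median was 0.12 without PAD4-DN replicate 2, 0.15 without WT replicate 1 and 0.14 without WT replicate 2.

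In the latent storage and activation list, 0 of 18 genes passed and the median log2 fold change was 0.13. That median was −0.04 without PAD4-DN replicate 1, 0.25 without PAD4-DN replicate 2, 0.21 without WT replicate 1 and 0.14 without WT replicate 2. Itgb1, a beta integrin chain, and Mmp14, a membrane metalloproteinase, were the most abundant, at means of 563 and 454 TPM over all libraries. Itgb8, the beta chain of an integrin that releases active TGF-beta from its latent form, was at 5.76 and 7.42 CPM in PAD4-DN libraries and 4.26 and 3.69 CPM in WT libraries. For Itgb8 the log2 fold change was 0.73 (SE 0.29, unadjusted p = 0.0465, edgeR adjusted p = 0.988). Ltbp3, a latent TGF-beta binding protein, was at 231 and 154 CPM in PAD4-DN libraries and 149 and 163 CPM in WT libraries, with overlap.

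Of the matrix binders and antagonists, 10 of 14 were tested and 0 passed, with a median of 0.03. That median was −0.14 without PAD4-DN replicate 1, 0.09 without PAD4-DN replicate 2, 0.05 without WT replicate 1 and 0.31 without WT replicate 2. Decorin (Dcn), a proteoglycan that binds TGF-beta, was the most abundant, at a mean of 851 TPM over all libraries. By genotype it was at 981 and 1045 CPM in PAD4-DN libraries and 981 and 770 CPM in WT libraries, with overlap. Fstl1, a follistatin-like secreted protein, had a mean of 251 TPM over all libraries. Asporin (Aspn), a related TGF-beta-binding proteoglycan, was at 39.1 and 56.0 CPM in PAD4-DN libraries and 10.3 and 33.7 CPM in WT libraries. Asporin's log2 fold change of 1.11 (SE 0.54) had an edgeR adjusted p of 0.988, and leaving out WT replicate 1 gave 0.50 while leaving out WT replicate 2 gave 2.21.

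Among other ligands, 8 of 15 were tested, 0 passed and the median was 0.32. That median was 0.12 without PAD4-DN replicate 1, 0.15 without PAD4-DN replicate 2, 0.18 without WT replicate 1 and 0.25 without WT replicate 2. Bmp1, a procollagen protease despite its name, was the most abundant at a mean of 99.1 TPM over all libraries, and the ligand Gdf11 followed at 4.39 TPM. Bmp2 was at 5.81 and 12.5 CPM in PAD4-DN libraries and 6.99 and 4.28 CPM in WT libraries, with overlap. Among other receptors, 9 of 10 were tested, 0 passed and the median was 0.03, which ran from −0.0067 without PAD4-DN replicate 2 to 0.18 without WT replicate 1. The BMP receptors Bmpr1a (135 and 149 CPM in PAD4-DN, 115 and 125 CPM in WT) and Bmpr2 (287 and 355 CPM in PAD4-DN, 256 and 272 CPM in WT) did not overlap. Their log2 fold changes were 0.24 (SE 0.12) and 0.28 (SE 0.16), with an edgeR adjusted p of 0.988 for each. They had the smallest p of this list, in which 3 of 9 genes lay above WT without overlap, against 15.4% of all genes. The Bmpr2 value was 0.12 without PAD4-DN replicate 2 and 0.43 without PAD4-DN replicate 1. Acvr1, an activin and BMP type I receptor, had the highest mean of that list at 46.0 TPM.

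The SMADs and their partners had a median of 0.00 over 17 of 18 genes tested, with 9 positive and 8 negative and log2 fold changes between −0.16 and 0.25. The most abundant were Usp15, a deubiquitinase of the receptor complex, and the SMAD corepressor Tgif1, at means of 74.6 and 73.8 TPM over all libraries. Trim33, a SMAD4-binding ubiquitin ligase, was at 63.7 and 79.9 CPM in PAD4-DN libraries and 60.7 and 62.8 CPM in WT libraries. Map3k7, the kinase TAK1 of the non-SMAD branch, was at 102 and 116 CPM in PAD4-DN libraries and 102 CPM in both WT libraries.

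Of the TGF-beta-induced target genes, 23 of 26 were tested and 0 passed by edgeR. Their median log2 fold change was 0.28, with 17 positive and 6 negative. Without PAD4-DN replicate 1 the median was −0.06, with 10 positive and 13 negative. It was 0.40 without PAD4-DN replicate 2, 0.23 without WT replicate 1 and 0.34 without WT replicate 2. Both PAD4-DN libraries lay above both WT libraries for 6 of the 23 and below for 0, against 15.4% and 17.4% of all genes. Collagen Col1a1 was at 161 and 4.14 TPM in PAD4-DN libraries and 3.67 and 127 TPM in WT libraries, and periostin (Postn), a matrix protein, at 31.8 and 0.833 TPM in PAD4-DN libraries and 0.0996 and 64.1 TPM in WT libraries. Both were high in the libraries where the fibroblast markers had their high medians, PAD4-DN replicate 1 and WT replicate 2, and the part of those cells was not tested. Fibronectin (Fn1) was at 1970 and 2452 TPM in PAD4-DN libraries and 2095 and 1533 TPM in WT libraries, with overlap. Acta2, smooth muscle actin, was low, at 7.86 and 6.96 CPM in PAD4-DN libraries and 4.97 and 5.39 CPM in WT libraries. Acta2 had a log2 fold change of 0.51 (SE 0.25, edgeR adjusted p = 0.988).

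Klf10, a zinc finger factor induced early by TGF-beta, had the smallest p of these genes, with a log2 fold change of 0.55 (SE 0.13, unadjusted p = 0.00753, edgeR adjusted p = 0.988). DESeq2 called it, at an adjusted p of 0.0157. Most of its reads were assigned to an annotated transcript of 326 bases, which held 99.6% to 99.7% of Klf10 TPM in each library. Whether the reads assigned to it come from Klf10 was not tested, so the Klf10 fold change and the DESeq2 call are uncertain. That short transcript was at 625 and 639 CPM in PAD4-DN libraries and 402 and 443 CPM in WT libraries. The other Klf10 transcripts together were at 46.0 and 41.7 CPM in PAD4-DN libraries and 39.9 and 38.2 CPM in WT libraries, a smaller gap in the same direction.

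The BMP-induced target list had 3 of 8 genes tested, all positive, with a median of 0.47, and 0 passed. Id2, an inhibitor of basic helix-loop-helix factors, was at 31.6 and 26.2 CPM in PAD4-DN libraries and 27.2 and 14.4 CPM in WT libraries. Its relative Id3 was at 39.4 and 17.4 CPM in PAD4-DN libraries and 13.4 and 23.1 CPM in WT libraries, and groups overlapped for both. The median was −0.07 without PAD4-DN replicate 1, 0.09 without WT replicate 2, 0.84 without PAD4-DN replicate 2 and 1.00 without WT replicate 1.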

How the data were processed

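Per the labels' protocols, poly-A RNA of the 4 sorted samples was made into strand-specific libraries. Per the submitters' processing notes, the authors used kallisto with build GRCm39; neither its version nor its annotation is given in the sources used here. As the file headers name them, the authors' tables hold estimated counts of each transcript, not normalized, and TPM, which the authors scaled by effective length. Of 117486 transcripts, 116408 matched a GENCODE M21 gene by identifier without version. Unmatched ones held 0.483% to 0.493% of counts and were left out. Counts and TPM were summed over 35905 genes, and counts were rounded.

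PAD4-DN was compared with WT by edgeR 4.0.16 (R 4.3.3): TMM, filterByExpr, quasi-likelihood test without a replicate block, Benjamini-Hochberg adjustment over 13718 genes at 0.05. Alternatives included DESeq2 1.42.0 and limma 3.58.1. Fits were tested on simulated counts. Members and lists were chosen with earlier results of these data known. Besides members, the text names the 2 tested genes per list with the smallest p and the 2 with the highest mean TPM. Transcripts, and the grouping by coding segments, were chosen after their values were seen, as were further genes given as counts or markers. Limits from counts cover counting error only.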

Additional observations from a re-analysis of the deposited data

How the results depend on the processing

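The count of 0 genes called over all genes became 11 with DESeq2 on the same genes and 10 with edgeR without the low-count filter, and it ran from 0 to 2 with each library left out in turn, 2 without WT replicate 2. No member was called under any alternative, leaving out libraries included. Of the pathway genes 1, Klf10, was called by DESeq2, and 0 with any library left out. The member median of 0.01 was 0.13 with a mean of at least 5 CPM, which drops Tgfb2 and Pmepa1, and ran from −0.030 to 0.21 over the left-out libraries, highest without WT replicate 2. The mean difference in Tgfb1 share of ligand TPM ran from −6.93 to 4.09 percentage points, and was above 0 without WT replicate 1 or PAD4-DN replicate 2.

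With limma-trend on log2(TPM + 1), the log2 fold changes of Tgfb1, Tgfbr2 and Tgif1 were above 0, at 0.039, 0.020 and 0.0055, and with a pseudocount of 0.1 they were 0.040, 0.021 and 0.0055; the cause was not tested. Every other alternative that kept all 4 libraries kept the direction of the members and of the genes named by p or TPM, where it included them. Tgfb2, Pmepa1 and Itgb8 were not in the limma-trend fits. Tgfb2 and Pmepa1 were also not in the fit with a mean of at least 5 CPM. Further genes in the text were not followed through the alternatives. With 1 library left out, which leaves 1 in a group that is assumed to vary like the other, signs turned for Tgfb1 (−0.25 to 0.14), Tgfb2 (−1.33 to 1.08), Tgfb3 (−0.15 to 0.27), Inhba (−0.47 to 0.66), Tgfbr2 (−0.27 to 0.18) and Smad7 (−0.17 to 0.10). They kept for Tgfbr1 (0.10 to 0.25), Tgfbr3 (0.0050 to 0.45), Skil (0.06 to 0.40) and Pmepa1 (−2.88 to −0.11). Among pathway genes they turned for Ltbp3 (−0.015 to 0.57), Mmp14 (−0.055 to 0.34), Fstl1 (−0.034 to 0.37), Bmp1 (−0.27 to 0.060), Gdf11 (−0.21 to 0.25), Acvr1 (−0.10 to 0.18), Usp15 (−0.21 to 0.043), Tgif1 (−0.17 to 0.072), Fn1 (−0.050 to 0.48) and Id3 (−0.067 to 1.11). Signs kept, with a value moved by over 1.5 times, for Aspn (0.50 to 2.21), Dcn (0.05 to 0.40), Bmp2 (0.045 to 1.154), Bmpr2 (0.12 to 0.43), Itgb1 (0.02 to 0.22), Trim33 (0.05 to 0.37), Map3k7 (0.0050 to 0.19) and Id2 (0.09 to 1.00).

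The labels share replicate numbers but do not say whether same-numbered libraries were paired. Same-numbered libraries deviated in opposite directions (correlation −0.34 over 13718 genes). This cannot decide whether they were paired, since each group gives only the difference between its 2 libraries. With the replicate block edgeR called 0 genes and 0 members (309 genes at an unadjusted p under 0.05). With the numbers crossed, a pairing chosen after seeing the data, edgeR called 0 genes and 0 members (412 genes at an unadjusted p under 0.05). With 2 libraries a group and a median SE of 0.20 on the log2 scale, small differences were not detectable. Tgfb2 and Pmepa1 had few counts and also a wide spread within groups (SD 1.26 and 1.51 in log2 CPM).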
